A study of Mus musculus with 15 samples.

Results

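The murinoglobulins Mug1 and Mug2, the murinoglobulin pseudogene Gm10319, and the related genes Pzp and A2m were followed in liver RNA of mice with and without Stab1. These 5 genes were taken by symbol from a deposited table of 19464 rows, in which each stood on 1 row. Stab1 encodes Clever-1 (stabilin-1), a scavenger receptor of liver sinusoidal endothelium and of macrophages. RNA sequencing covered 15 libraries: whole liver from 4 Stab1-/- and 4 wildtype mice at 2 weeks of age, and from 3 Stab1-/- and 4 wildtype fetuses late in gestation (E17.5, an embryonic day). Both genotypes were on a mixed C57BL/6N;129SvJ background and no group received a treatment according to the labels. The Stab1-/- mice lack the gene product in every cell type, so a difference in liver RNA is not tied to one cell type, and whether the wildtype mice were littermates is not given in the sources used here. The genes were chosen by their difference between genotypes at 2 weeks, since Mug1, Mug2 and Gm10319 stand in a list that the study drew from those libraries. Their values at 2 weeks between genotypes are therefore a description and carry no test. A2m and Pzp are treated the same way there.

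The alpha-macroglobulins are large secreted protease inhibitors. A protease that cleaves their bait region is trapped by the folding of the inhibitor around it, and the complex is cleared by the receptor Lrp1. Hepatocytes are their main source in rodents. Murinoglobulins are the single-chain members found in rodent plasma, and Pzp (pregnancy zone protein) and A2m (alpha-2-macroglobulin) encode relatives of them. Gm10319 and its neighbour Mug-ps1 are annotated as transcribed pseudogenes, and Mug-ps1 is described with the members because its RNA can exchange reads with theirs.

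All but one of the members lay together on chromosome 6. In the GRCm38 annotation (GENCODE), A2m spanned chr6:121635376-121679227, Mug1 chr6:121838541-121889057, Mug2 chr6:122006761-122085965 and Gm10319 chr6:122136628-122152016, all on the plus strand. Mug-ps1 followed at chr6:122176015-122248563. Pzp lay 6.24 Mb beyond it on the minus strand, at chr6:128483567-128526720. The distance from the start of A2m to the end of Mug-ps1 was 613.2 kb.

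**Figure D1:**
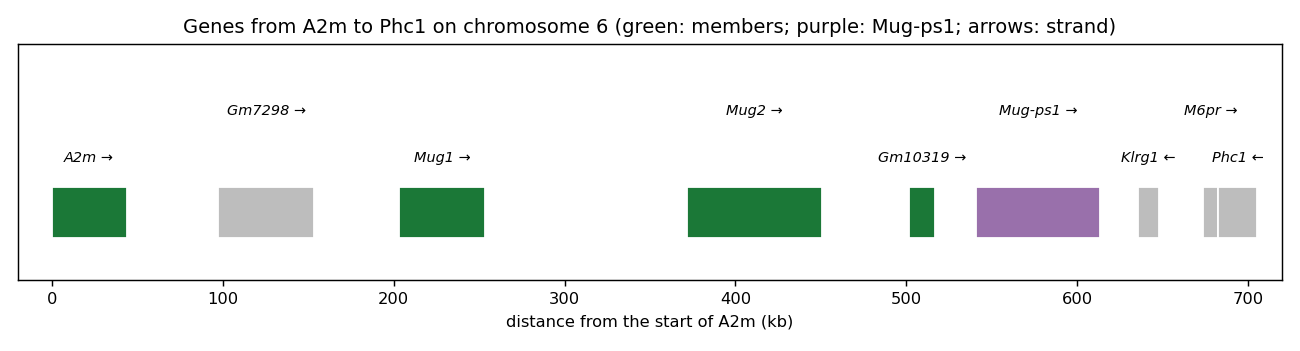
Map of the genes from A2m to Phc1, with the distance from the start of A2m in kb on the horizontal axis, members in green, Mug-ps1 in purple, other genes in grey and arrows for the strand. A2m, Mug1, Mug2, Gm10319 and Mug-ps1 lie on one strand within 613.2 kb.

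The murinoglobulin copies are so alike that the letters decide which reads can be told apart. The aligned transcripts of Mug1 and Mug2 were 95.2% identical, those of Mug2 and Mug-ps1 96.8%, and those of Mug1 and Mug-ps1 95.4%. Gm10319 was 86.3% identical to Mug1 and 88.1% to Mug2 over the part that aligned. Pzp and A2m were further away, with 69.5% and 72.3% identity to Mug1 and 70.3% to each other. Among gap-free stretches of 60 coding bases of the 3 closest copies, the one with the largest minimum difference between any pair is shown. Every base at which the 3 copies are not all alike is in capitals. Mug1 and Mug2 differed there at 7 bases, Mug1 and Mug-ps1 at 8, and Mug2 and Mug-ps1 at 7. Positions are counted from the first base of the transcript, 1262 to 1321 in Mug1 and Mug2 and 1054 to 1113 in Mug-ps1.
Mug1: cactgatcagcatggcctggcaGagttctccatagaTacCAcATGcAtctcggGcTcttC
Mug2: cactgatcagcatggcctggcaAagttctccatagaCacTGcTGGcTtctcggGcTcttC
Mug-ps1: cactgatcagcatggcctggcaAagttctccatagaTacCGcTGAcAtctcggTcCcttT

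Other parts offer no such difference. Of 3207 windows of 60 bases aligned without gaps in all 3 copies, within the coding sequence of Mug1 and Mug2, 277 were identical in all of them. The longest identical stretch ran over 123 bases of coding sequence, from base 603 to base 725 of Mug1 and of Mug2. It is shown because a read from it cannot be assigned to Mug1, Mug2 or Mug-ps1.
Shared by Mug1, Mug2 and Mug-ps1: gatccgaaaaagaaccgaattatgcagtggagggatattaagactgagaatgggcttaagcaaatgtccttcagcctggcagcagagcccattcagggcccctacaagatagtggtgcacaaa

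The deposited counts hold uniquely mapped reads only, and the coverage column showed where such reads could lie. Of all 50-base windows of a transcript, 67.1% of those of Mug1 occurred in no other annotated gene, against 49.5% for Mug2, 54.3% for Mug-ps1, 79.8% for Gm10319, 95.5% for Pzp and 100% for A2m. Such windows covered 90.1% of the bases of Mug1, 70.6% of Mug2 and 74.8% of Mug-ps1. The deposited coverage, the percent of the gene model with at least one read, rose no higher than 94.05% for Mug1 (6022 reads), 72.91% for Mug2 (1048 reads) and 73.41% for Mug-ps1 (670 reads). For Pzp it stayed between 97.18% and 97.56% in all 15 libraries, beside 97.7% of bases in such windows. The read length is not given in the sources used here, and with windows of 100 bases the share found in no other gene was 92.1% for Mug1 and 72.9% for Mug2. These shares ask for an exact match. Only 26.7% of the 50-base windows of Mug1, 20.1% of Mug2 and 31.2% of Mug-ps1 differed from every other family transcript compared at more than 2 bases. A few mismatches in a read could therefore change the copy it was counted on. RPKM divides by the whole gene length, so a copy with a smaller unique part, such as Mug2, is understated beside Mug1. A comparison of one copy between groups uses the same gene length in every library.

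**Figure D2:**
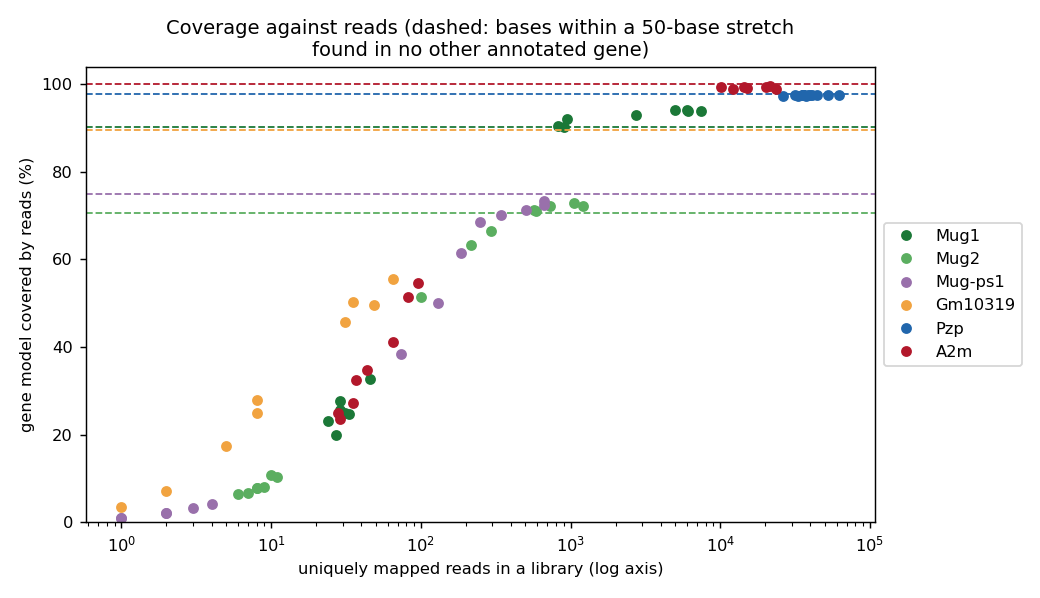
Percent of each gene model covered by reads (vertical axis) against uniquely mapped reads in a library (horizontal log axis), one point per gene and library with at least 1 read, for Mug1, Mug2, Mug-ps1, Gm10319, Pzp and A2m. Dashed lines mark the percent of bases that lie in a 50-base stretch found in no other annotated gene: coverage of Mug2 and Mug-ps1 levels off near 73%, close to their lines at 70.6% and 74.8%, whereas Pzp and A2m reach over 97%.

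The sequence around the gene starts was also alike in Mug1 and Mug2. Their promoters (RefSeq, GRCm38.p6, 250 bases before to 50 after the gene start) aligned over 256 bases with 96.1% identity. They are shown for the part around 2 motifs, in capitals, because the 2 genes moved together in these libraries. The first is GTTAAT read on the minus strand, one arm of the site of the hepatocyte factor HNF1. It begins at -73 from the RefSeq gene start in Mug1 and at -101 in Mug2. The second, ATAAATA, is a TATA-like run of letters, which begins at -27 from that start in Mug2 and 10 bases past it in Mug1. These 2 starts are not placed alike. In Mug1 the RefSeq start is the GENCODE start given above, whereas in Mug2 it lies downstream of the GENCODE start (122006761). Counted from the GENCODE starts, ATAAATA lies past the start in both genes, so the offsets mark no difference between them. The stretch shown lies at chr6:121838448-121838562 for Mug1 and chr6:122006677-122006782 for Mug2, both on the plus strand.
Mug1: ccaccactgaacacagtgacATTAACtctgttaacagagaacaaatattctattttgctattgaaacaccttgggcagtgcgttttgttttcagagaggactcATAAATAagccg
Mug2: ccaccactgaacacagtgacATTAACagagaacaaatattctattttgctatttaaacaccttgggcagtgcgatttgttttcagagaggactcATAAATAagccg

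Of all 32851 promoters in the table, 7.1% held GTTAAT and 5.6% held ATAAATA on either strand. Pzp held GTTAAT at 2 places and no ATAAATA. None of Mug1, Mug2 and Pzp held TTCNNNGAA (the STAT site, 8.3% of promoters), TTGCNNAA (C/EBP, 10.8%), the TATA box TATAAA (13.6%) or CAAAGTCCA (HNF4, 0.5%). These are matches of letters on either strand of 300-base windows and say nothing of binding. A2m and Gm10319 were not matched to a promoter entry.

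Libraries held between 9659 and 10964 reads on genes, in units of 1000 reads. The targeted gene Stab1 was lower in the Stab1-/- libraries at both ages. It lay between 0.862 and 1.54 RPKM (reads on the gene scaled to its length and to the total reads of the library) in the 4 Stab1-/- livers at 2 weeks against 7.30 to 11.0 RPKM in wildtype, a log2 fold change of -3.19 ± 0.20 (SE; edgeR, adjusted p = 5.15e-06). At E17.5 it lay between 3.60 and 5.23 RPKM against 14.9 to 21.8 RPKM (-1.91 ± 0.15, adjusted p = 0.00101). The hepatocyte markers were present in every library: Alb, the serum albumin gene, ranged from 37468 to 67858 RPKM. In bulk liver, fewer cells of a type and less RNA per cell cannot be told apart. Blood cell markers differed widely with age, since the summed level of 9 erythroid genes was 11907 to 15786 RPKM at E17.5 and 195 to 468 RPKM at 2 weeks.

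The 5 members had very different levels per gene length. Pzp was the most abundant in every library, with 571 to 1254 RPKM, and its group means ranked between 45 and 82 among the 19464 rows. A2m was of the same order at E17.5, with group means of 342 and 325 RPKM, and near 1 RPKM at 2 weeks. Mug1 moved the opposite way, from rank 12775 in wildtype at E17.5 to rank 2068 at 2 weeks and rank 566 in Stab1-/- livers at 2 weeks. Mug2 followed Mug1 at a lower level in all 15 libraries, and Gm10319 was the lowest of the 5 in every E17.5 library. The sum of the 5 levels went from 1051 ± 81.4 RPKM (SD, n = 4) in wildtype at E17.5 to 1016 ± 239 RPKM at 2 weeks, and from 1131 ± 236 RPKM (n = 3) to 868 ± 112 RPKM (n = 4) in Stab1-/- livers. A2m made up 32.3% of that sum in wildtype at E17.5 and 0.0677% at 2 weeks, while Pzp went from 67.6% to 96.7%. In Stab1-/- livers at 2 weeks Mug1 made up 15.2% and Pzp 81.8%.

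**Figure D3:**
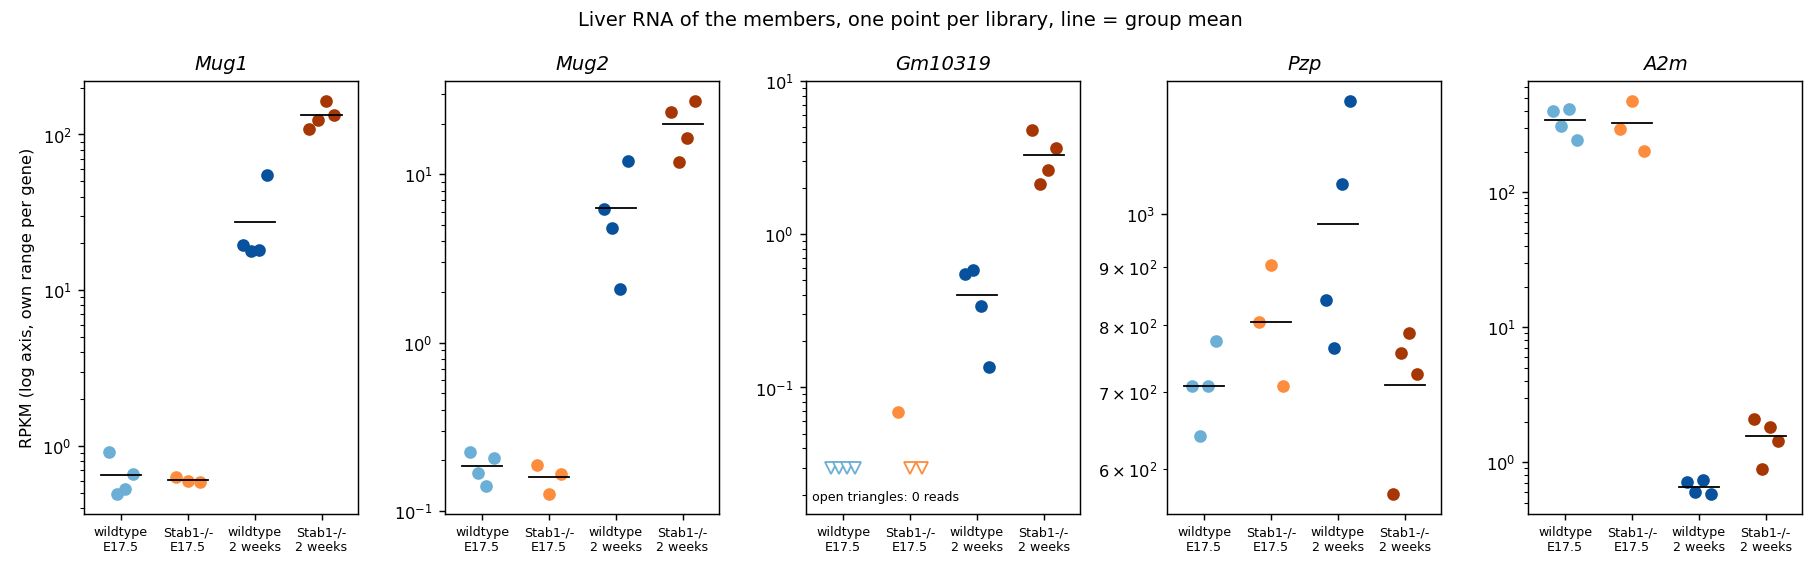
RPKM of Mug1, Mug2, Gm10319, Pzp and A2m (vertical log axis with its own range for each gene) in the 4 groups, one point per library, a line at the group mean where every library had a read, and open triangles for libraries with 0 reads. Mug1 lies between 0.493 and 0.917 RPKM at E17.5, between 17.8 and 54.8 RPKM in wildtype at 2 weeks and between 108 and 165 RPKM in Stab1-/- at 2 weeks, while A2m runs the other way with age.

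The first question was whether the members differed between genotypes in fetal liver, whose libraries did not serve to choose them. Mug1 was near the limit of detection there, at 46, 24, 27 and 33 reads (0.917, 0.493, 0.529 and 0.662 RPKM) in wildtype and 31, 29 and 29 reads (0.633, 0.595 and 0.587 RPKM) in Stab1-/- fetuses. The Stab1-/- values lay inside the wildtype range, and the log2 fold change was -0.05 ± 0.26 (SE; edgeR, adjusted p = 0.953). Mug2 had 11, 8, 7 and 10 reads in wildtype and 9, 6 and 8 in Stab1-/- livers, which also overlapped. It did not pass the filter on low counts. Gm10319 had 0 reads in 6 of the 7 libraries and 1 read in the other, a Stab1-/- library, which is under the limit of 3 reads that a count of 0 allows.

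Pzp and A2m were abundant in fetal liver and did not pass the test between genotypes either. Pzp measured 709, 641, 709 and 776 RPKM in wildtype and 806, 902 and 708 RPKM in Stab1-/- fetuses. Those ranges overlapped, with a log2 fold change of 0.25 ± 0.12 (SE; edgeR, adjusted p = 0.411). A2m measured 399, 309, 415 and 242 RPKM in wildtype and 293, 477 and 203 RPKM in Stab1-/- livers. It varied more within each genotype than between them, at -0.01 ± 0.29 (adjusted p = 0.992). Of the 3 members that passed the filter, 0 were called by edgeR, 0 had an unadjusted p under 0.05, and 0 were called by DESeq2 or limma. In the same comparison 0.366% of all 13388 rows tested were called. The spread of A2m among the 3 Stab1-/- fetuses, 140 RPKM (SD), leaves room for a difference in either direction that these libraries could not show.

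The second question was how the members differed between fetal and 2-week wildtype liver. These 2-week wildtype libraries also enter the genotype comparison at 2 weeks. Mug1 measured 19.6, 17.8, 18.3 and 54.8 RPKM at 2 weeks (954, 822, 904 and 2724 reads), from the levels near 0.65 RPKM at E17.5. Every 2-week library was above every E17.5 library, and 1 of them, wildtype replicate 4, was 2.96 times the mean of the others. The log2 fold change of Mug1 was 5.78 ± 0.45 (SE; edgeR, adjusted p = 2.16e-07), and 5.18 without that library. Mug2 rose with it, to 6.20, 4.79, 2.07 and 12.1 RPKM, from 0.225, 0.169, 0.141 and 0.206 RPKM. Mug2 passed the filter on low counts only through its 2-week libraries, so its difference is given as a description with no p. These groups did not overlap, and the log2 fold change was 5.44 ± 0.56. Without wildtype replicate 4 it was 4.88.

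Gm10319 had 8, 8, 5 and 2 reads in wildtype liver at 2 weeks against 0 in all 4 wildtype libraries at E17.5. Set against a limit of 3 reads per library, its mean of 0.404 ± 0.209 RPKM (SD, n = 4) at 2 weeks was at least 1.99-fold higher. It did not pass the filter in this comparison. The neighbouring pseudogene Mug-ps1 had 250, 131, 74 and 185 reads at 2 weeks and 2, 3, 1 and 1 at E17.5. Relative to total reads its level was 94.1 times higher at 2 weeks, with a 95% interval from counting error alone of 45.4 to 235.

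A2m took the opposite course. It fell from 242 to 415 RPKM at E17.5 to 0.713, 0.602, 0.743 and 0.580 RPKM at 2 weeks, or from 12153 reads and more to 28 to 37 reads per library. The 2 ranges lay far apart, with a log2 fold change of -8.65 ± 0.24 (SE; edgeR, adjusted p = 6.23e-11), and the mean was 518 times lower. Pzp measured 842, 765, 1061 and 1254 RPKM at 2 weeks against 641 to 776 RPKM at E17.5. Its ranges overlapped by the lowest 2-week library, and its log2 fold change was 0.84 ± 0.17 (adjusted p = 0.000732).

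In wildtype liver 3 of the 4 members that passed the filter were higher at 2 weeks and 1 was lower. Most of the liver transcriptome differed between these ages: 71.9% of 13369 rows tested were called, 34.9% as higher and 37.0% as lower. Nothing is read from the share of members called, which passed the filter in part through the group where they are high. The 2-week and E17.5 libraries also differed in how a scaling by total reads set the centre: under it the median gene stood at -0.38 on the log2 scale, 3104 rows were called higher and 6834 lower against 4667 and 4948 with TMM (trimmed mean of M-values) factors. With that scaling Pzp rose by 0.47 on the log2 scale in place of 0.84 and was still called. The directions of Mug1, Mug2 and A2m were the same under TMM, RLE (relative log expression) and total-read scaling.

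The same comparison was made in Stab1-/- livers. Its 2-week libraries are those in which the murinoglobulins were high when they were chosen, so the values of Mug1, Mug2 and Gm10319 with age are given here as a description, with no test. Mug1 went from 0.587 to 0.633 RPKM at E17.5 to 108, 124, 165 and 133 RPKM (4969, 6111, 7411 and 6022 reads) at 2 weeks. All 4 libraries at 2 weeks were over 100 times above the 3 at E17.5, with a log2 fold change of 7.99 ± 0.22 (SE). Mug2 went from 0.188, 0.126 and 0.166 RPKM to 23.4, 11.8, 16.5 and 27.4 RPKM (7.15 ± 0.41). Gm10319 went from a single read in the 3 E17.5 libraries together to 65, 31, 35 and 49 reads at 2 weeks. It passed the filter on low counts only through its 2-week libraries. The ratio relative to total reads was 143 with a 95% counting interval of 25.3 to 5668, which shows how little 1 read fixes it.

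A2m fell in Stab1-/- livers as well, from 293, 477 and 203 RPKM to 2.08, 0.888, 1.81 and 1.42 RPKM. The log2 fold change was -7.51 ± 0.36 (SE; edgeR, adjusted p = 1.52e-08). Pzp measured 571, 757, 787 and 726 RPKM at 2 weeks, within or below its range of 708 to 902 RPKM at E17.5, and was not called (0.04 ± 0.16, adjusted p = 0.835). Its sign turned to -0.18 under scaling by total reads. By the edgeR fit 3 of the 5 members were past the threshold as higher and 1 as lower at 2 weeks, beside 35.7% and 36.8% of the 13433 rows tested and 72.5% called in either direction, and nothing is read from the share of higher members. Under scaling by total reads the median gene was at -0.24 on the log2 scale, with 3758 rows higher and 5944 lower in place of 4791 and 4945.

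**Figure D4:**
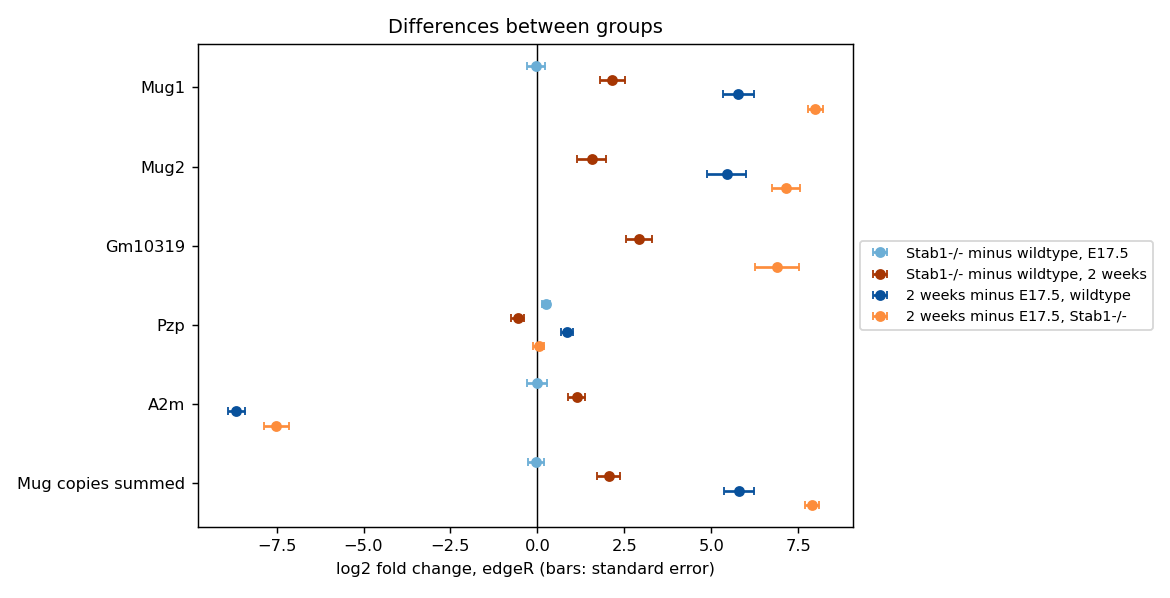
Log2 fold change with its standard error (horizontal axis) for the 5 members and for the sum of Mug1, Mug2, Gm10319 and Mug-ps1. The 2 genotype comparisons and the 2 age comparisons are shown, for those rows that passed the filter on low counts. Mug1, Mug2 and the sum lie at 5.44 to 7.99 with age, Mug1 and the sum lie near 0 between genotypes at E17.5, where Mug2 did not pass the filter, A2m lies at -8.65 and -7.51 with age, and Pzp stays between -0.56 and 0.84.

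At 2 weeks the murinoglobulins were higher in Stab1-/- than in wildtype livers. This contrast brought members into view, so its values are given with no test. Mug1 was 132 ± 23.8 RPKM (SD, n = 4) in Stab1-/- livers and 27.6 ± 18.2 RPKM (n = 4) in wildtype, a log2 fold change of 2.16 ± 0.35 (SE). The lowest Stab1-/- library (108 RPKM) was 1.97 times the highest wildtype library (54.8 RPKM). Without wildtype replicate 4 the other 3 wildtype libraries lay at 18.5 ± 0.917 RPKM, and the log2 fold change was 2.76. Mug2 was 19.8 ± 6.94 RPKM against 6.28 ± 4.22 RPKM, a difference of 1.56 ± 0.42 on the log2 scale. Its groups overlapped, since wildtype replicate 4 (12.1 RPKM) was above Stab1-/- replicate 2 (11.8 RPKM).

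The pseudogene Gm10319 did not overlap between genotypes at 2 weeks, with 31 to 65 reads in Stab1-/- and 2 to 8 reads in wildtype libraries, and a log2 fold change of 2.92 ± 0.37 (SE). Unlike Mug1 and Mug2, its lowest wildtype value was in replicate 4. Mug-ps1 was 11.8 ± 3.65 RPKM against 3.28 ± 1.52 RPKM (1.77 ± 0.31). A2m remained low in both genotypes at 2 weeks, with 96, 44, 82 and 65 reads in Stab1-/- and 35, 28, 37 and 29 reads in wildtype livers. These ranges did not overlap, and the log2 fold change was 1.13 ± 0.24. Pzp was lower, at 710 ± 96.2 RPKM against 981 ± 221 RPKM (-0.56 ± 0.19), with overlapping ranges.

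By the edgeR fit 3 of the 5 members (Mug1, Gm10319 and A2m) were past the threshold at 2 weeks, all higher, and DESeq2 put 4 and limma 2 past it, beside 2.67% of 12716 rows tested in either direction and 0.936% in this direction. Groups did not overlap, with Stab1-/- higher, for the same 3 members and for 10.4% of the rows tested. Nothing is read from these shares, since the contrast entered the choice of members. Scaling by total reads gave 137 rows higher and 118 lower in place of 119 and 221. The genotype difference at E17.5 minus that at 2 weeks, also a description, was -2.24 ± 0.59 on the log2 scale for Mug1, -1.74 ± 1.06 for Mug2, -1.17 ± 0.43 for A2m and 0.77 ± 0.24 for Pzp.

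Wildtype replicate 4 and the Stab1-/- libraries also stood apart in other genes. Afp, the fetal serum protein alpha-fetoprotein, was 134, 141, 137 and 35.8 RPKM in the wildtype livers at 2 weeks and 29.0, 28.5, 31.7 and 19.5 RPKM in the Stab1-/- livers. The wildtype library with the highest Mug1 was thus the one with the lowest Afp. In that library H19 (2418 RPKM) and Igf2 (323 RPKM) were also the lowest of the wildtype livers. They stayed above every Stab1-/- liver, which reached at most 1059 and 69.1 RPKM. Dlk1 went the other way, highest in that library at 0.541 RPKM against 0.347 to 0.423 RPKM in the other wildtype livers. Of the 4 fetal hepatocyte markers, Afp, H19 and Igf2 were called lower in Stab1-/- livers at 2 weeks, and their summed level was 998 to 1160 RPKM with Dlk1 against 2778 to 5285 RPKM in wildtype. At E17.5 edgeR called 0 of the 4, 0 had an unadjusted p under 0.05, and DESeq2 and limma called 0. Of the 5 neutrophil markers edgeR called 0 between genotypes at 2 weeks, with 4 under an unadjusted p of 0.05, and DESeq2 called 1 and limma 0. The summed level of S100a8, S100a9, Ngp, Ltf and Camp was 420, 201, 301 and 187 RPKM in Stab1-/- and 140, 145, 48.9 and 29.7 RPKM in wildtype livers. At E17.5 the same sum was 3488 to 3815 RPKM in Stab1-/- and 4974 to 8159 RPKM in wildtype livers, where A2m overlapped between genotypes. None of the 5 was at or under 3 reads in a whole group. The part that these cell markers play in the member values was not tested.

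Because copies can exchange reads, the rows of Mug1, Mug2, Gm10319 and Mug-ps1 were also summed to a single row. The sum left out Gm7298, a protein-coding gene between A2m and Mug1, whose transcript was 93.7% identical to Mug1 and 93.2% to Mug2. It also left out Mug4-ps. Both shared exact 50-base windows with Mug1, Mug2 and Mug-ps1, so the sum may not hold every copy that can exchange reads. The sum was 1.18, 0.723, 0.689 and 0.888 RPKM in wildtype and 0.890, 0.762 and 0.834 RPKM in Stab1-/- livers at E17.5. It did not differ beyond that spread, with a log2 fold change of -0.04 ± 0.23 (SE; edgeR, adjusted p = 0.954). At 2 weeks it was 31.4, 26.0, 22.2 and 70.7 RPKM in wildtype and 151, 145, 195 and 179 RPKM in Stab1-/- livers. The Stab1-/- libraries were all above the wildtype ones, by 2.05 ± 0.32 on the log2 scale, and by 2.59 without wildtype replicate 4. With age the sum rose by 5.79 ± 0.42 in wildtype (adjusted p = 1.01e-07), and in Stab1-/- livers, as a description, it was 7.89 ± 0.20 higher.

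Within the sum, Mug1 held the largest share in every library. It made up 62.3%, 68.5%, 82.4% and 77.5% of the summed RPKM in the wildtype livers at 2 weeks and 71.7%, 85.6%, 84.5% and 74.4% in the Stab1-/- livers. At E17.5 it held 68.2% to 77.6% in wildtype and 70.4% to 78.1% in Stab1-/- livers, from 35 to 59 reads for all copies together, and the lowest of these, 24 of 35 reads, had an exact 95% interval of 50.7% to 83.1% of reads from counting error alone. Mug2 went from 21.5 ± 2.11% (SD, n = 4) at E17.5 to 16.1 ± 4.66% at 2 weeks in wildtype and from 19.2 ± 2.38% (n = 3) to 11.9 ± 4.10% (n = 4) in Stab1-/- livers. The wildtype difference did not pass the two-sided exact permutation test (p = 0.0571, 0.257 after adjustment over 9 tests). The difference in Stab1-/- livers is given as a description, since those 2-week libraries entered the choice of members. The smallest p this test allows is 0.0286, both for 4 against 4 and for 3 against 4. The tests of the shares of Mug1 and Mug-ps1 with age in wildtype and of all 3 copies between genotypes at E17.5 gave adjusted p from 0.257 to 0.8. The 9 tests of the adjustment also include the shares with age in Stab1-/- livers, from which nothing is read.

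**Figure D5:**
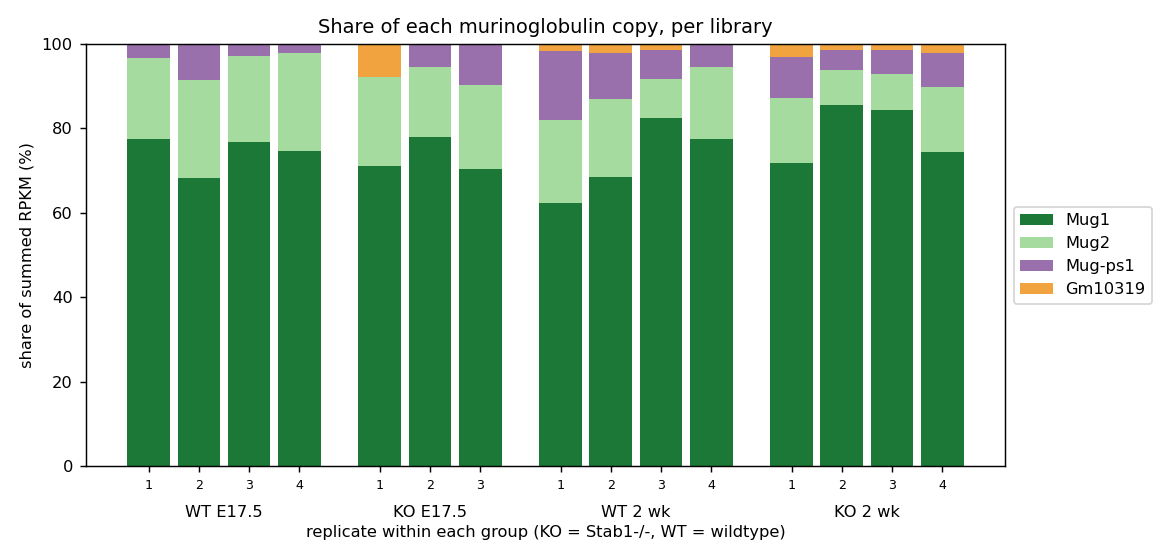
Share of Mug1, Mug2, Mug-ps1 and Gm10319 in their summed RPKM (vertical axis, percent) for each library, by group and replicate. Mug1 holds 62.3% to 85.6% in all 15 libraries, and Mug2 holds 8.17% to 23.3%.

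The ratio of Mug1 to Mug2 varied between mice of the same group. Per gene length it was 4.63, 10.5, 9.96 and 4.85 in the Stab1-/- livers at 2 weeks and 3.16, 3.71, 8.82 and 4.54 in wildtype. Libraries with a ratio near 9 or 10 and libraries with a ratio near 4 were present in both genotypes at this age, 2 and 2 in Stab1-/- and 1 and 3 in wildtype. At E17.5 the ratio was between 2.93 and 4.72 in all 7 libraries, where Mug2 rested on 6 to 11 reads.

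Genes related by structure, or that act on macroglobulins, were counted from a list of 11 symbols, of which 9 were in the table. A2ml1 and BC048546 on that list name the same gene. At E17.5 edgeR called 0 of the 7 tested between genotypes, with 2 at an unadjusted p under 0.05, and DESeq2 and limma called 0. At 2 weeks Mug-ps1, which stands in the study's list for this contrast and is given as a description, was past the threshold as higher. Of the other 7 tested 0 were called higher and 1 lower, the complement component C3, at 1153 ± 117 RPKM against 1717 ± 210 RPKM (log2 fold change -0.67 ± 0.15, edgeR adjusted p = 0.043). With Mug-ps1 counted, 4 of 8 had an unadjusted p under 0.05, and edgeR called 2, DESeq2 3 and limma 2. Among all rows tested there edgeR called 2.67%. The related complement genes C4b (-0.37 ± 0.16) and Hc (-0.21 ± 0.12) were not called. Lrp1, the receptor that clears macroglobulin complexes, was 45.9 ± 5.12 RPKM against 51.7 ± 6.72 RPKM and was not called. Between ages in wildtype 5 of 8 were higher at 2 weeks and 1 was lower, Lrpap1, the chaperone of Lrp1, at -0.38 ± 0.10. Of all rows tested 34.9% were called higher and 37.0% lower there. Lrp1 itself rose by 1.96 ± 0.16 on the log2 scale. The list's median was 1.32 in that comparison beside -0.01 over all rows tested. In Stab1-/- livers 4 of 7 were higher at 2 weeks and 1 was lower, beside 35.7% and 36.8% of all rows, with a list median of 0.96. These counts and medians with age include Mug-ps1, which passed the filter on low counts only through its 2-week libraries. Nothing is therefore read from them. BC048546, a further macroglobulin-like gene beside Pzp, had 3.67 to 10.2 RPKM in the 15 libraries but reads on only 11.45% to 13.39% of its gene model.

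The other plasma protease inhibitors of the liver, 18 genes of the alpha-1-antitrypsin (Serpina1), inter-alpha-inhibitor and kininogen groups among others, were set beside the members. Between genotypes edgeR called 0 of 18 at either age, with 7 at E17.5 and 10 at 2 weeks under an unadjusted p of 0.05. DESeq2 called 4 and 5 of them and limma 0. Their median log2 fold change at 2 weeks was -0.36, beside -0.01 over all rows. The ends of that list were Serpina1c and Serpina1d, both at -0.75 (SE 0.34 and 0.24), and Fetub, fetuin-B, and Serpina1e at 0.09 ± 0.16 and 0.23 ± 0.19. At E17.5 the ends were Serpina1e at -1.31 ± 0.67 and Hrg, histidine-rich glycoprotein, at 0.75 ± 0.23. With age in wildtype 16 of 18 were higher at 2 weeks and 1 was lower, beside 34.9% and 37.0% of all rows tested. The largest rise was that of Hrg (3.38 ± 0.18), followed by Fetub (3.27 ± 0.21), and the fall was that of Serpina1e (-3.64 ± 0.25, edgeR adjusted p = 5.84e-08), from 1137 ± 228 RPKM to 70.6 ± 20.2 RPKM. In Stab1-/- livers 13 were higher and 2 lower, Serpina1e and Itih3, beside 35.7% and 36.8% of all rows tested. The Serpina1 genes are near-identical copies, so their separate counts are uncertain.

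Genes of interleukin-6 signalling and of the acute-phase response were counted as a further list of 19, because some macroglobulins are acute-phase proteins in some rodents. Whether the mouse genes followed here respond in that way was not tested. At 2 weeks 1 of the 17 tested was higher in Stab1-/- livers, Orm1, the acute-phase protein orosomucoid, at 11.0 ± 5.74 RPKM against 1.45 ± 0.885 RPKM (log2 fold change 2.83 ± 0.47, edgeR adjusted p = 0.0102). Orm1 stands in the study's list as well, so this call is not independent of that list. One was lower, Il6st, the shared receptor subunit gp130, at -0.53 ± 0.11 (adjusted p = 0.0319). Of the 17 tested, 6 had an unadjusted p under 0.05, and DESeq2 called 5 and limma 1 in place of 2 by edgeR. Of all rows tested there edgeR called 2.67%, and 0.936% as higher. Lbp, which binds bacterial lipopolysaccharide, had the lowest value of the list, -0.57 ± 0.16, and Apcs, serum amyloid P, had the highest after Orm1, 0.73 ± 0.22, and neither was called. At E17.5 edgeR called 0 of 15, with 3 under an unadjusted p of 0.05, and DESeq2 and limma called 0. With age 8 of 17 rose and 2 fell in wildtype, where 34.9% of all rows tested were called higher and 37.0% lower. In Stab1-/- livers 9 of 18 rose and 3 fell, beside 35.7% and 36.8% of all rows. The serum amyloid gene Saa1 had the largest fitted rise in both, from 0.0376 to 6.72 RPKM in wildtype and from 0.0518 to 10.6 RPKM in Stab1-/- livers as means, with few reads at E17.5. Saa2 came next in wildtype and Orm2 in Stab1-/- livers. Saa1, Saa2 and Orm2 passed the filter on low counts only through their 2-week libraries, so nothing is read from the counts of genes that rose. Jak2, a kinase of the receptor, fell by 1.45 and 1.42 on the log2 scale. Socs3, a feedback inhibitor, was at -0.49 ± 0.15 in wildtype and at -0.89 ± 0.18 in Stab1-/- livers.

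Genes whose levels ran most like those of each member were named by Pearson correlation of log2(RPKM + 0.1) over the 15 libraries, among 13885 rows. These libraries fall into 4 groups and share their depth and composition, so the values describe the pattern of groups and carry no p. For Mug1 the highest were Pcp4l1 (0.990), Mug2 (0.988), Nrn1 (0.988), Wfdc16 (0.986) and G630090E17Rik (0.986). Pcp4l1 measured 2.89 and 2.69 RPKM in wildtype and Stab1-/- livers at E17.5, and 57.0 and 131 RPKM at 2 weeks. Mug2 was most like Mug-ps1 (0.991), with Wfdc16, Mug1 and Nrn1 among the next. Gm10319 was most like Gpr98 (0.970) and Baat (0.970), the enzyme that conjugates bile acids, at 33.9 ± 12.3 RPKM in wildtype and 79.5 ± 15.7 RPKM in Stab1-/- livers at 2 weeks, followed by Cox7a2l, A430005L14Rik and 2010315B03Rik.

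Pzp ran with a different set, in which Hadha (0.941), an enzyme of fatty acid oxidation, Alb (0.917) and the protease inhibitor precursor Ambp (0.871) came before Os9. A2m was most like Ppp1r1a (0.994) and then Ngp, Ltf, Mmp9 and Runx1 (0.993 each). Ngp, Ltf and Mmp9 encode granule proteins of neutrophils, and all of these genes, like A2m, had lower group means at 2 weeks than in fetal liver in both genotypes. When the group means were taken out, the genes that deviated most like Mug1 were Ggcx (0.866), Tns1, Slc36a2, Furin and Rsu1 (0.833). Slc36a2 was near the floor at 2 weeks, with means of 0.00964 RPKM in wildtype and 0 RPKM in Stab1-/- livers. Mug1 itself rested on 24 to 46 reads per library at E17.5, and wildtype replicate 4 stood apart at 2 weeks. The weight of single libraries in these correlations was not tested. Ggcx encodes the vitamin K-dependent carboxylase and Furin a protease that processes secreted proteins.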

How the data were processed

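The authors isolated total RNA from dissected livers, 1 library per mouse, and deposited 1 table of 19464 rows with 3 values per library. The authors' counts are unnormalized and hold reads that mapped to one place. Their deposited RPKM values scale each count to the listed gene length and to the library's total on genes, and a recomputation differed by at most 7.67e-12 percent. The deposited coverage gives the percent of the gene model with reads. The aligner, genome build, read length and strand setting are not given in the sources used here. Libraries held 9659 to 10964 reads in units of 1000. Any pair of libraries of 1 group differed far beyond sampling noise (chi-square of at least 5.68 per degree of freedom), so none was counted as a repeat.

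For each comparison alone, the quasi-likelihood test of edgeR 4.0.16 (R 4.3.3, two-sided, TMM) was run on rows kept by filterByExpr (min.count 10, min.total.count 15), with Benjamini-Hochberg adjustment over all rows tested and a threshold of 0.05. SE is the log2 fold change divided by the square root of its F statistic. Alternatives were RLE factors, total reads, no filter, DESeq2 1.42.0, a replicate block, a fit of all 15 libraries, limma 3.58.1 on log2(RPKM + 0.1) and log2(RPKM + 1), leaving out each library, and the copies summed. Shares were compared by exact permutation. The scripts were tested on simulated data. Transcripts (GENCODE, GRCm38) were aligned with Biopython 1.88 and the 3 closest copies with mafft 7.526. Promoters came from RefSeq (GRCm38.p6). Named genes were the members, Stab1, 3 gene lists with the 2 largest and 2 smallest fold changes, cell type markers and the 5 genes most alike each member. Some of these genes are not reported here. The members and lists were chosen with earlier results of these data known. Replicates were separate mice.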

Additional observations from a re-analysis of the deposited data

Results flagged for a closer look

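Mug1 in wildtype liver at 2 weeks held 1 library far from the others. Replicate 4 measured 54.8 RPKM, and the nearest of the other 3 wildtype libraries measured 19.6 RPKM, a gap of 0.952 of the whole range of the group. In all, 41 groups of 4 libraries were examined in this way over the members, Mug-ps1, BC048546, the summed copies and the shares, and this was the 1 that stood out, where chance gives about 1 in 20, or 2.05. The same library had the lowest Afp of its group (35.8 RPKM), but the highest Dlk1 (0.541 RPKM), and the highest Pzp (1254 RPKM). Its part in the genotype difference is given with the values at 2 weeks.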

How the results depend on the processing

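Outside the 2-week genotype comparison, all 190 alternative values of members' fold changes kept their side of the threshold and, where called, their direction. For the murinoglobulins with age in Stab1-/- livers this is no test, since those 2-week libraries entered the choice of members. Nor is it one for Mug2 with age in wildtype, which passed the filter only through its 2-week libraries. The number of genes called moved most. Between genotypes edgeR called 340 at 2 weeks and 49 at E17.5, and DESeq2 called 862 and 235, while at 2 weeks a fit of all 15 libraries called 703 and limma on log2(RPKM + 0.1) called 219. Leaving out 1 library gave 116 to 648 at 2 weeks and 27 to 46 at E17.5. At 2 weeks the lowest count came without Stab1-/- replicate 1 and the highest without wildtype replicate 2, and at E17.5 the lowest without wildtype replicate 2. The causes were not tested.

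For the summed copies at 2 weeks the log2 difference between genotypes was 1.86 to 2.59 with 1 library left out, highest without wildtype replicate 4. Gm10319 at 2 weeks was 1.58 and A2m 0.60 with limma on log2(RPKM + 1), whose pseudocount shrinks low levels. The row of summed copies, most of which is Mug1, was at 2.05. The Mug2 share in wildtype liver differed with age by -6.53 to -3.06 percentage points with 1 library left out. Without wildtype replicate 1 at 2 weeks (-6.53) its exact permutation p was below the threshold, before adjustment. Depth limits Mug2, Gm10319 and Mug-ps1 at E17.5, where no library held more than 11 reads of any of them.

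With the replicate number as a replicate block, 1181 genes were called between genotypes at 2 weeks and 23 at E17.5, and the members' calls outside the 2-week genotype comparison were as without it. Same-numbered libraries deviated together with correlations of 0.0302 to 0.21 at 2 weeks and -0.166 to 0.012 at E17.5. Only 2 of 4 and 0 of 3 Stab1-/- libraries correlated best with their own number, so the numbers were not taken as pairs.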

Other observations

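M6pr and Phc1 lie beyond the murinoglobulin cluster on chromosome 6. M6pr, which encodes the cation-dependent mannose 6-phosphate receptor, had mean levels of 61.0 and 62.0 RPKM in wildtype and Stab1-/- livers at E17.5 and 51.7 and 56.2 RPKM at 2 weeks. Its log2 fold change between genotypes was 0.03 ± 0.09 (SE) at 2 weeks and 0.09 ± 0.07 at E17.5, and edgeR called it in no comparison (adjusted p from 0.199 to 0.871). Phc1, a Polycomb protein gene, lay between 1.40 and 2.64 RPKM as group means and was called lower at 2 weeks in Stab1-/- livers only (-0.69 ± 0.22, adjusted p = 0.0151), with -0.36 ± 0.17 in wildtype (adjusted p = 0.0799), and the difference between these 2 changes was not tested.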
